A study of Mus musculus with 24 samples.

Results

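The 3 BALB/c mice described here (mice 3, 11 and 20) each carried a CT26.CL25 tumor in both flanks and received decitabine at 0.5 mg/kg. They were chosen by their treatment label, and tumor 1 was set against tumor 2 within each mouse. This gave 6 of the 24 samples of the series and 12 of its 48 tables, with 1 TCRα and 1 TCRβ library per tumor. CT26.CL25 is a subclone of CT26, a transplantable colon carcinoma line of BALB/c origin. Decitabine is a cytidine analog that inhibits DNA methyltransferases. The mice were females, 7 to 9 weeks old. One tumor of each mouse was excised, and decitabine was injected intraperitoneally from 3 days after surgery on 5 consecutive days. The remaining tumor was harvested 4 days after the last dose, so the excised tumor had not been exposed to the drug. The labels give each tumor a number but do not say which of a pair was excised. Tumor 1 and tumor 2 therefore have no known order in time, and the time between harvests, the surgery and the drug cannot be told apart within these mice. The comparison groups were 3 untreated time-matched mice with both tumors harvested on day 13, 3 untreated time-separated mice with harvests on days 9 and 20, and 3 time-separated mice given decitabine at 2 mg/kg.

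A T cell carries a receptor of an α and a β chain, each assembled in the thymus from V and J segments, with a D segment in the β chain. The junction of the segments encodes the third complementarity determining region (CDR3), the loop that makes most contact with the peptide on the presenting molecule. T cells that descend from 1 cell share the same junction, so a junction at a high share of a tumor's transcripts marks an expanded clone. CT26 tumors are known to be infiltrated by CD8 T cells, some of them directed against an endogenous retroviral antigen of the line. Here a clonotype was a CDR3 amino acid sequence with its V and J segment, and its share is its percent of the retained counts of a library. The TRB locus lies on mouse chromosome 6 and the TRA locus on chromosome 14 (RefSeq, GRCm38.p6). The α and β chains were sequenced separately, so which α belonged to which β was not measured. RNA came from whole tumors, so that fewer cells of a clone and less receptor RNA per cell cannot be told apart. Shares of a library add up to its total, so that a rise of one clonotype lowers the shares of others.

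Retained counts were larger in tumor 1 than in tumor 2 in every pair. TCRβ libraries held 134780 to 199081 counts in tumor 1 and 63291 to 98820 in tumor 2, and TCRα libraries held 65920 to 198499 and 55862 to 96375. Numbers of clonotypes per tumor and measures of overlap within a mouse were therefore computed after thinning every library to 63291 TCRβ or 26623 TCRα counts. Sequences marked with a stop codon, among them all those out of frame, were left out and took 6.85 to 8.91% of TCRβ counts and 9.23 to 13.9% of TCRα counts. On both chains each tumor resembled its own partner most. Its Morisita-Horn index with tumors of other mice, computed without thinning, was at most 0.0802 (TCRβ) and 0.110 (TCRα).

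The junctions that dominated the tumors are shown first, since every later value refers to them. For each mouse they are the largest clonotype of each tumor and the ones whose share grew most and shrank most from tumor 1 to tumor 2. Each line gives the CDR3 from 5′ to 3′, with capitals for the codons left after the first 3 and the last 3 residues, where the segments join. CDR3 amino acid sequences of up to 14 residues mostly serve as names, and other clonotypes are named by their segments. The TCRβ junctions were these.
Mouse 3, TRBV19–TRBJ2-1, 15 residues (largest of tumor 2): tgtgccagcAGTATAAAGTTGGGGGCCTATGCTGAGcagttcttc
Mouse 3, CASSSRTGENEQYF, TRBV17–TRBJ2-7 (largest of tumor 1): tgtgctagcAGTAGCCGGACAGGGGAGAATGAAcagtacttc
Mouse 3, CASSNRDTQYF, TRBV14–TRBJ2-5 (largest loss): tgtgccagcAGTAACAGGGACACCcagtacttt
Mouse 11, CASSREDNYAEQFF, TRBV17–TRBJ2-1 (largest of tumor 1): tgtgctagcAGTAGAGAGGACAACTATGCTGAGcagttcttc
Mouse 11, TRBV13-1–TRBJ2-5, 16 residues (largest of tumor 2): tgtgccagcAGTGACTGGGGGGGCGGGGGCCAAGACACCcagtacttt
Mouse 11, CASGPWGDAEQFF, TRBV13-2–TRBJ2-1 (largest gain): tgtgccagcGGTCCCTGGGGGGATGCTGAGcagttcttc
Mouse 20, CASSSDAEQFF, TRBV17–TRBJ2-1 (largest of tumor 1): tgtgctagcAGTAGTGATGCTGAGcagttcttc
Mouse 20, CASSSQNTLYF, TRBV17–TRBJ2-4 (largest of tumor 2): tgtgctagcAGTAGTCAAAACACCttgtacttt

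The TCRα junctions chosen in the same way were these.
Mouse 3, TRAV14-1–TRAJ39, 14 residues (largest of tumor 1): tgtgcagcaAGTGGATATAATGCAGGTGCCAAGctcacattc
Mouse 3, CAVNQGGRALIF, TRAV3-3–TRAJ15 (largest of tumor 2): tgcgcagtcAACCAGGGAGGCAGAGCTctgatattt
Mouse 3, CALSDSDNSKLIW, TRAV6-5–TRAJ38 (largest loss): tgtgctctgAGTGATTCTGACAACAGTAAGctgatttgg
Mouse 11, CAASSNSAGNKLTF, TRAV7-2–TRAJ17 (largest of tumor 1): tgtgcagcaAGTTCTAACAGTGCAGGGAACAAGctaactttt
Mouse 11, TRAV6-5–TRAJ30, 15 residues (largest of tumor 2): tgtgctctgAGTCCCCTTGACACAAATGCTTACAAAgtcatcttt
Mouse 11, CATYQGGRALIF, TRAV13-1–TRAJ15 (largest loss): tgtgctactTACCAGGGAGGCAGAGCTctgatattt
Mouse 20, TRAV16–TRAJ32, 17 residues (largest of tumor 1): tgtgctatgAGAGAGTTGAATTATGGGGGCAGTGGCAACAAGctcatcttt
Mouse 20, TRAV11–TRAJ32, 15 residues (largest of tumor 2): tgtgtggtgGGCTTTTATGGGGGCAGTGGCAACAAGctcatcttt
Mouse 20, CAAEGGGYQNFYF, TRAV4-2–TRAJ49 (largest loss): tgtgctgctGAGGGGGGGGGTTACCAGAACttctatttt

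Of the 21 clonotypes named per chain, 15 appeared in tumor 1 as well as tumor 2. All 15 on each chain had the same leading nucleotide sequence in both tumors. That sequence took 97.3 to 99.2% of the counts of these TCRβ clonotypes and 95.1 to 99.4% of those of the TCRα clonotypes, so each was carried almost entirely by 1 junction. Among the 15 clonotypes that ranked in the first 3 of a TCRβ tumor, 4 were found in no other mouse of the series and 12 stayed below 0.1% in every library of another mouse. Among the 14 TCRα clonotypes of the same rank, the numbers were 7 and 10. Some TCRβ clonotypes kept their leading nucleotide sequence in every library of another mouse that held them. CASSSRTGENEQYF did in 5 libraries (at most 0.0012%) and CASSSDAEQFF in 7 (at most 0.0091%). The TRBV13-1–TRBJ2-5 clonotype of mouse 11 did in only 3 of 10. TRBV17 was the leading segment, used by 6 of the 15 largest TCRβ clonotypes, with examples in all 3 mice.

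In mouse 3 the TCRβ hierarchy was replaced at the top: the 3 largest clonotypes of tumor 1 and the 3 largest of tumor 2 had no member in common. The tumor 1 leaders held 33.6% of counts in tumor 1 and 7.24% in tumor 2, and the tumor 2 leaders held 12.7% and 39.7%. The TRBV19–TRBJ2-1 clonotype took 2.65% of tumor 1 (95% CI 2.58 to 2.73) and 16.1% of tumor 2 (15.8 to 16.4), moving from rank 7 to rank 1. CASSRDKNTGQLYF, a TRBV17–TRBJ2-2 clonotype, took 2.76% and 13.6%. Both were thus 6.08-fold and 4.94-fold higher in tumor 2. A TRBV13-2–TRBJ2-4 clonotype of 18 residues was large in both tumors, at 7.28% and 9.98%. The leaders of tumor 1 were all smaller in tumor 2. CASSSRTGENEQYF took 13.3% and 3.83%, and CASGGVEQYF, a TRBV29–TRBJ2-7 clonotype of only 10 residues, took 10.5% and 3.23%. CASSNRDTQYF dropped furthest, from 9.77% of tumor 1 (18170 counts) to 0.183% of tumor 2 (116 counts), which is 53.3-fold lower. The largest clonotype found in tumor 1 only was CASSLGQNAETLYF at 0.942%, where the absence in tumor 2 allows up to 0.00474% (3 counts). The largest found in tumor 2 only was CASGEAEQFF at 0.921%, at least 571-fold above the same limit of 0.00161% in tumor 1. All these intervals and limits cover counting error only, since each tumor had 1 library per chain.

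In mouse 11 the largest TCRβ clonotype of tumor 1 lost its place while other large ones rose. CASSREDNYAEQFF took 16.7% of tumor 1 (95% CI 16.6 to 16.9) and 3.83% of tumor 2 (3.71 to 3.95), and was 4.37-fold lower. The TRBV13-1–TRBJ2-5 clonotype, 16 residues long with a run of glycines, took 6.26% and 12.2% and was the largest of tumor 2. Of the other leaders of tumor 2, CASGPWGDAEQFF took 1.86% and 10.1% (5.44-fold higher), and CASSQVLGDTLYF, a TRBV5–TRBJ2-4 clonotype, took 2.10% and 7.40%. The first 3 of tumor 1 held 29.2% of tumor 1 and 23.1% of tumor 2, with 1 clonotype common to both sets of leaders. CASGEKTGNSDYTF was the largest clonotype found in tumor 2 only, at 1.297%, at least 861-fold above the limit in tumor 1. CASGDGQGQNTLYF was the largest found in tumor 1 only, at 0.344%.

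Mouse 20 kept its 2 leading TCRβ clonotypes and reversed their order. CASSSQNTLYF took 6.28% of tumor 1 (95% CI 6.15 to 6.41) and 19.5% of tumor 2 (19.3 to 19.8). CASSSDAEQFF took 14.8% (14.6 to 15.0) and 10.8% (10.6 to 11.0). Both are TRBV17 clonotypes of 11 residues that begin CASSS. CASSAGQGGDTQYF, a TRBV13-3–TRBJ2-5 clonotype, was 4.09-fold higher in tumor 2, at 1.74% and 7.14%. A TRBV1–TRBJ2-3 clonotype of 15 residues took 4.48% and 2.91%. The first 3 of tumor 1 held 25.6% of tumor 1 and 33.2% of tumor 2, so that here the leaders of tumor 1 together were larger in tumor 2. Clonotypes found in 1 tumor only were small, with a TRBV19–TRBJ2-1 clonotype of 15 residues at 0.962% of tumor 2 and a TRBV5–TRBJ1-1 clonotype of 17 residues at 0.551% of tumor 1.

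On the α chain, the clonotype with the largest gain in share had a different V segment in each mouse. In mouse 3, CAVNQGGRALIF took 4.01% of tumor 1 (95% CI 3.86 to 4.16) and 25.3% of tumor 2 (24.9 to 25.6), which is 6.30-fold higher. In mouse 11, the TRAV6-5–TRAJ30 clonotype took 5.58% (5.48 to 5.68) and 14.4% (14.2 to 14.7), which is 2.58-fold higher. In mouse 20, the TRAV11–TRAJ32 clonotype took 2.74% (2.65 to 2.83) and 22.1% (21.8 to 22.4), which is 8.07-fold higher. All were at rank 3 in tumor 1, in mouse 20 at equal counts with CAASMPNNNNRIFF. The chain of the TRAV11–TRAJ32 clonotype shares its V segment with invariant natural killer T cells but not their J segment, TRAJ18.

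Other TCRα leaders behaved in several ways. The TRAV14-1–TRAJ39 clonotype, the largest of tumor 1 in mouse 3, took 14.2% and 15.2%, and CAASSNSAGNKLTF, the largest of tumor 1 in mouse 11, took 9.14% and 8.29%. Also in mouse 11, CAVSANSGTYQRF (TRAV3-3–TRAJ13) took 5.08% and 7.69%, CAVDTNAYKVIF (TRAV7-1–TRAJ30) took 7.27% and 5.88%, and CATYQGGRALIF took 4.82% and 1.07%. These 5 stayed at 1% or more in both tumors. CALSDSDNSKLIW of mouse 3 was the second largest of tumor 1 at 5.57% (3671 counts) and was down to 0.0412% in tumor 2 (23 counts), 135-fold lower. It was found in none of the 22 TCRα libraries of other mice. In mouse 20 the tumor 1 leaders were smaller than in the other mice and most of them receded: the TRAV16–TRAJ32 clonotype took 2.97% and 0.242%, and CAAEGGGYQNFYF took 2.95% and 0.0803%, 36.7-fold lower. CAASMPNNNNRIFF (TRAV10–TRAJ31) stayed at 2.74% and 2.63%. The difference of this last clonotype turned to a gain of 0.0244 percentage points when sequences with a single count were kept. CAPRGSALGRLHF (TRAV12-1–TRAJ18) rose in rank from 19 to 3, at 0.845% and 6.28%, which is 7.4-fold higher in tumor 2.

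The largest TCRα clonotypes found in a single tumor stayed near 1%. Those of tumor 1 only were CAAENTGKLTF (TRAV4-3–TRAJ27) at 1.03% in mouse 3, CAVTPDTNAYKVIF (TRAV3-1–TRAJ30) at 1.47% in mouse 11 and a TRAV16D/DV11–TRAJ42 clonotype of 13 residues at 0.822% in mouse 20. Those of tumor 2 only were a TRAV9-3–TRAJ45 clonotype at 0.632% in mouse 3, a TRAV21/DV12–TRAJ56 clonotype at 0.826% in mouse 11 and a TRAV7-4–TRAJ17 clonotype at 1.29% in mouse 20. The 3 largest clonotypes of tumor 2 in mouse 3 held 21.2% of tumor 1 and 48.0% of tumor 2. Those of mouse 11 held 19.8% and 30.4%, and those of mouse 20 held 6.10% and 37.4%. In mice 3 and 11, 2 of these were also among the 3 largest of tumor 1. In mouse 20 the TRAV11–TRAJ32 clonotype alone was, by that tie, which was settled for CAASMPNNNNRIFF in the counts and in the plot of named clonotypes. Several mouse TRAV segments have nearly identical duplicate copies, so a V call between such copies is uncertain.

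**Figure D1:**
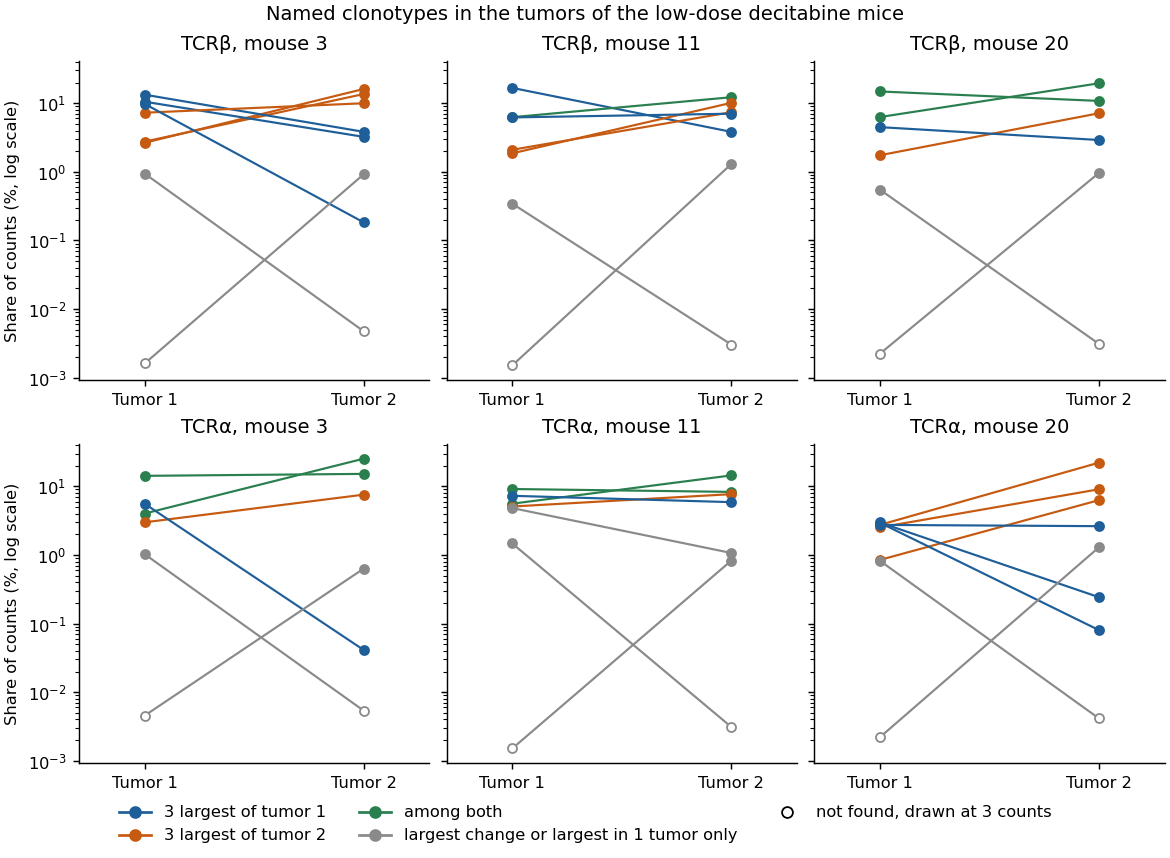
Share of counts (log scale) of each named clonotype in tumor 1 and tumor 2, 1 panel per mouse and chain, with lines joining the values of a clonotype and open points at 3 counts where it was not found. Lines cross in every panel, from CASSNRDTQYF falling from 9.77 to 0.183% in mouse 3 to the TRAV11–TRAJ32 clonotype rising from 2.74 to 22.1% in mouse 20.

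Across all clonotypes that took at least 0.1% of either tumor, most differed at least 4-fold between the tumors of a mouse. A count under 3 was set to 3 for this ratio. Of the TCRβ clonotypes, 29 of 94 in mouse 3 were at least 4-fold higher in tumor 2 (30.9%) and 36 were at least 4-fold lower (38.3%). Mouse 11 had 40 (38.5%) and 41 (39.4%) of 104. Mouse 20 had 25 (24.0%) and 52 (50.0%) of 104. On the α chain the balance lay further toward tumor 1. There, 33 of 177 in mouse 3 were higher in tumor 2 (18.6%) and 107 were lower (60.5%). Mouse 11 had 38 (25.2%) and 89 (58.9%) of 151, and mouse 20 had 30 (17.0%) and 120 (68.2%) of 176. The median ratio between tumors, taken either way, was 6.36, 15.4 and 18.1 for TCRβ and 19.5, 33.2 and 27.0 for TCRα in mice 3, 11 and 20. In the time-matched mice the percent past 4-fold either way was 3.70, 2.94 and 18.6 for TCRβ and 10.6, 2.78 and 12.8 for TCRα. A tumor had 1 library per chain, so no clonotype was tested on its own. After thinning, 73.1 ± 4.1% of TCRβ clonotypes (SD, n = 3) and 83.0 ± 3.2% of TCRα clonotypes were past 4-fold in the low-dose mice, against 7.86 ± 9.80% and 9.53 ± 6.96% in the time-matched mice. Without thinning, the percent in the other time-separated mice ran from 47.8 to 84.2 (TCRβ) and 64.6 to 87.3 (TCRα) in the untreated mice and from 55.6 to 59.0 and 52.7 to 75.8 at 2 mg/kg, so that the low-dose mice lay inside the untreated range.

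The clonotypes at least 4-fold higher in tumor 2 held a large part of its counts. On the β chain they rose from 7.33 to 45.6% of counts in mouse 3, from 4.05 to 38.3% in mouse 11 and from 5.38 to 36.5% in mouse 20. The TCRβ clonotypes lower in tumor 2 went from 20.1 to 0.642%, from 33.2 to 5.19% and from 14.6 to 0.585%. Between them lay the 29, 23 and 27 clonotypes that stayed within 4-fold, which together held 47.2 and 41.0%, 39.8 and 44.8%, and 45.5 and 52.1% of the tumors. On the α chain the clonotypes higher in tumor 2 went from 6.09 to 42.6%, from 4.13 to 35.7% and from 5.73 to 51.1%, and those lower went from 35.7 to 1.08%, from 31.7 to 2.03% and from 40.7 to 1.47%. These sums follow from how the classes were formed and are given as a description.

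Whether a clonotype was found again in the other tumor went with its size. Of 62 TCRβ clonotypes at 1% or more of either tumor, 60 were in both tumors, and the other 2 were found only in tumor 2 of mouse 11. Of the 240 between 0.1 and 1%, 155 were in both (64.6%), with 58 in tumor 1 only and 27 in tumor 2 only. Of all 10605 TCRβ clonotypes, 1508 were in both (14.2%), but these held 68.2 to 80.6% of tumor 1 and 83.5 to 92.0% of tumor 2. The count of shared clonotypes depended on rare variants. After thinning, 441, 452 and 460 TCRβ clonotypes were in both tumors of mice 3, 11 and 20, and 185, 211 and 231 when sequences 1 base from a far larger one were left out. The α chain followed the same order by size, with 60 of 65 at 1% or more, 238 of 439 between 0.1 and 1% (54.2%) and 1209 of all 8625 (14.0%). In the time-matched mice the middle class was nearly always found again, 94 of 97 TCRβ clonotypes (96.9%) and 235 of 243 TCRα clonotypes (96.7%). In the untreated time-separated mice 48.8% (TCRβ) and 46.3% (TCRα) of that class were in both tumors, and at 2 mg/kg 72.7 and 69.3%. These counts were made without thinning. The time-matched libraries held 375898 to 610800 TCRβ and 176171 to 846655 TCRα counts, more than most low-dose libraries, and the part of depth was not tested. A clonotype counted as found at any retained count, traces included. Of the TCRβ clonotypes at 1% or more, 11 of 18, 11 of 25 and 9 of 19 in mice 3, 11 and 20 also appeared in other mice. Their median share where found was 0.00118, 0.0949 and 0.0344%. Whether any were carried between libraries was not tested.

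**Figure D2:**
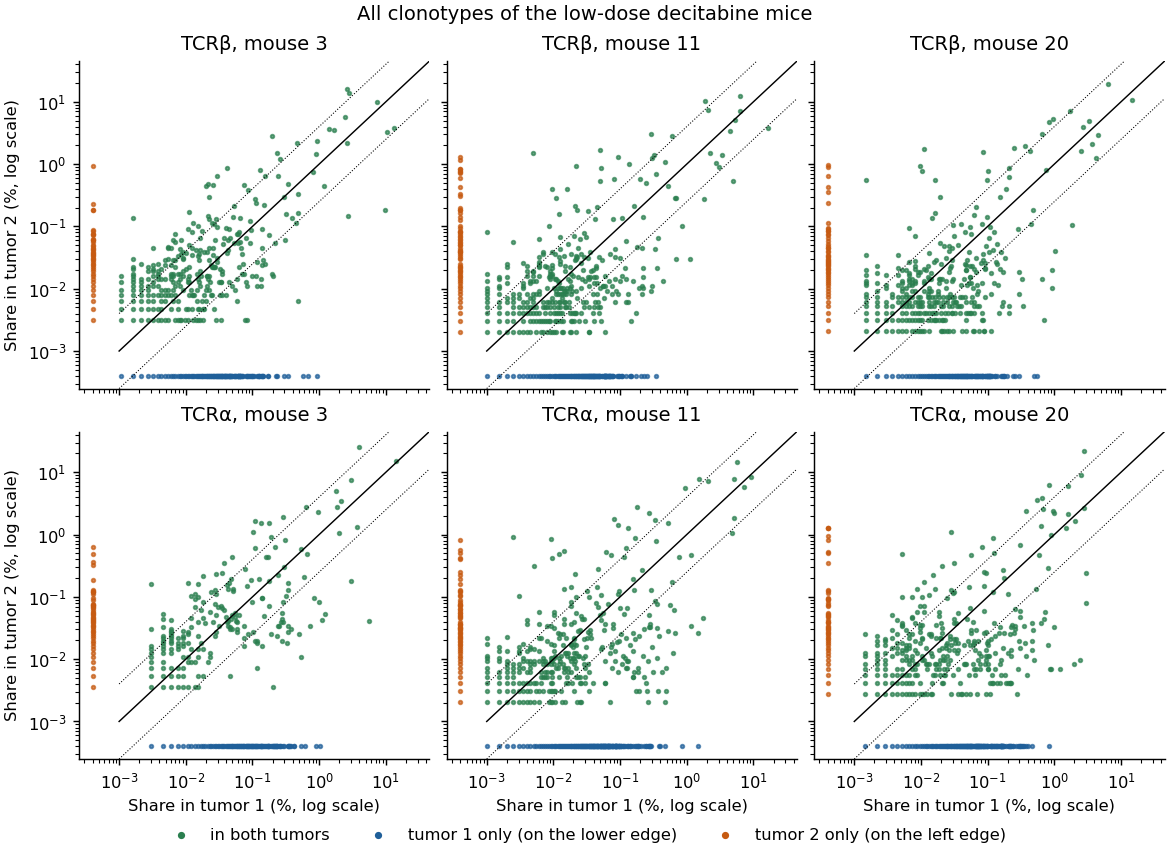
Share of every clonotype in tumor 1 (horizontal, log scale) against tumor 2 (vertical, log scale) for each low-dose mouse and chain, with the line of equal shares, dotted lines at 4-fold, and clonotypes of a single tumor drawn on the edges. Points spread far beyond the 4-fold lines at all sizes, and nearly all points above 1% lie off the edges (60 of 62 TCRβ and 60 of 65 TCRα clonotypes were in both tumors).

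The overlap within each low-dose mouse was summarized with the Morisita-Horn index, which is 1 for identical repertoires and 0 for repertoires with nothing in common. Mice 3, 11 and 20 had TCRβ indices of 0.486, 0.606 and 0.706 (mean 0.599 ± 0.110, SD, n = 3) and TCRα indices of 0.570, 0.707 and 0.322 (mean 0.533 ± 0.195). Mouse 20 thus had the highest overlap on the β chain and the lowest on the α chain. The time-matched mice lay at 0.984 ± 0.015 and 0.965 ± 0.025, above every low-dose mouse. The differences of -0.385 (TCRβ) and -0.432 (TCRα) gave an exact permutation p of 0.1 each, the smallest that 3 against 3 mice allow. Against the 6 other time-separated mice, untreated or given 2 mg/kg, the low-dose mice differed by -0.146 (TCRβ) and -0.118 (TCRα), which is within the spread between mice. Those mice had indices of 0.745 ± 0.181 and 0.651 ± 0.310 (SD, n = 6, exact permutation p = 0.25 and 0.583, where 0.0119 was the smallest possible).

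The private share, which is the part of a tumor's counts in clonotypes absent from its partner, averaged 0.188 ± 0.022 for TCRβ and 0.248 ± 0.035 for TCRα, against 0.0595 ± 0.0152 and 0.0920 ± 0.0512 in the time-matched mice (exact permutation p = 0.1 each, the smallest possible). Tumor 1 held the larger private share in every low-dose mouse, 0.257, 0.195 and 0.320 for TCRβ, against 0.0836, 0.168 and 0.107 in tumor 2. In the 6 other time-separated mice the private share ran from 0.0472 to 0.369 for TCRβ and from 0.130 to 0.548 for TCRα as the mean of both tumors, a range that holds every low-dose mouse. Segment usage differed as well. The distance between the tumors of a mouse in V usage, which runs from 0 for the same usage to 1, averaged 0.268 for TCRβ and 0.399 for TCRα, against 0.0576 and 0.0928 in the time-matched mice. For J usage it averaged 0.203 and 0.315 against 0.0581 and 0.0941. The low-dose and time-matched mice did not overlap in any of these 4 distances (exact permutation p = 0.1 each, the smallest possible). In the 6 other time-separated mice, V distances ran from 0.110 to 0.396 (TCRβ) and from 0.237 to 0.498 (TCRα). Their J distances ran from 0.0811 to 0.351 and from 0.200 to 0.527. These ranges hold every low-dose mouse.

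**Figure D3:**
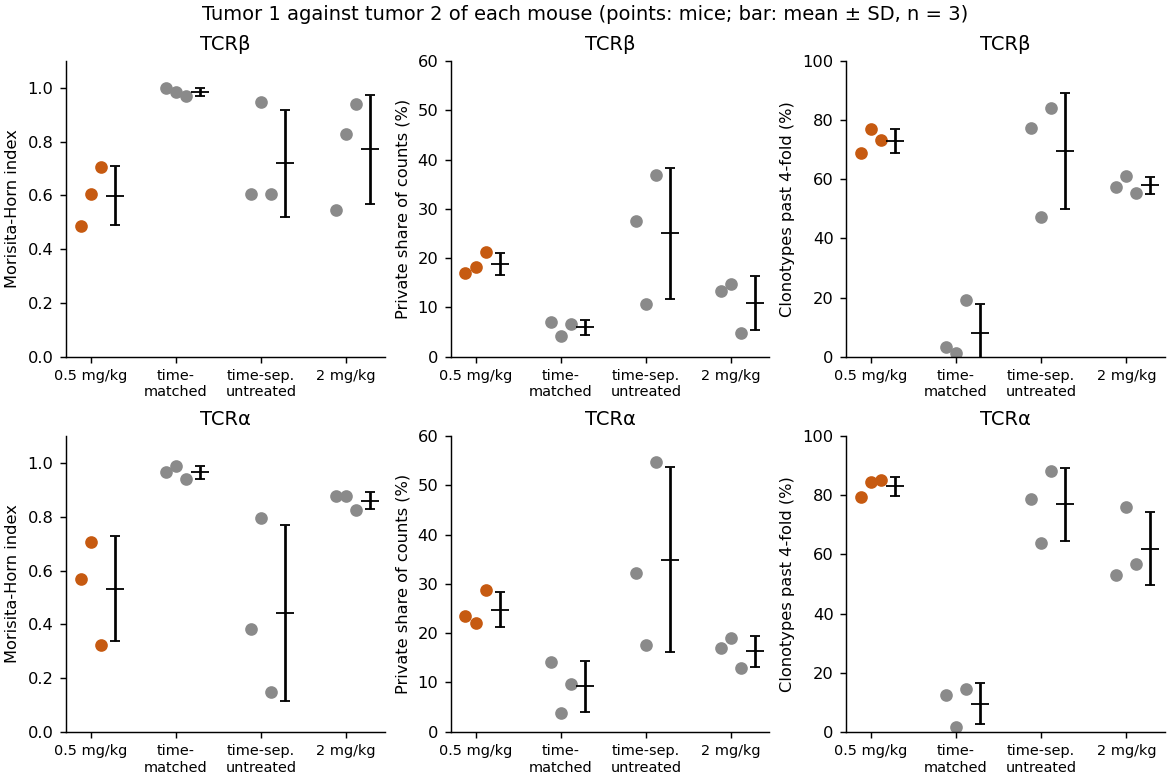
Morisita-Horn index, private share of counts (here in percent) and percent of clonotypes past 4-fold between the tumors of each mouse, for TCRβ (top) and TCRα (bottom), with points for mice and bars for the mean ± SD of 3 mice. The low-dose mice (0.5 mg/kg) lie apart from the time-matched mice in all 6 panels (TCRβ index 0.599 ± 0.110 against 0.984 ± 0.015) and overlap the range of the other time-separated mice in the index.

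Tumor 2 held fewer clonotypes than tumor 1 in all 3 mice after thinning. For TCRβ, mouse 3 had 2282 and 993, mouse 11 had 2037 and 1600, and mouse 20 had 2537 and 1441, a mean log2 ratio of -0.79 ± 0.43 (SD, n = 3). For TCRα there were 1061 and 722, 1519 and 1050, and 2024 and 1084, a mean log2 ratio of -0.66 ± 0.21. The normalized Shannon index, which is 1 when all clonotypes are equal in size, was also lower in tumor 2 in 3 of 3 mice, by a mean difference of -0.0834 ± 0.0665 for TCRβ and -0.184 ± 0.052 for TCRα. The exact sign-flip permutation p was 0.25 for each of these, the smallest that 3 pairs allow. The mean Shannon difference was -0.109 and -0.144 in the untreated time-separated mice, -0.0659 and -0.0779 at 2 mg/kg, and -0.00121 and -0.00936 in the time-matched mice. In the time-matched mice the mean log2 ratio was -0.11 ± 0.17 for TCRβ and -0.12 ± 0.10 for TCRα. It was -0.30 ± 0.53 and -0.61 ± 0.62 in the untreated time-separated mice and -0.85 ± 0.77 and -0.94 ± 0.80 at 2 mg/kg. The 10 largest clonotypes made up 55.8 and 64.97%, 55.3 and 56.7%, and 45.5 and 64.3% of TCRβ counts in tumor 1 and tumor 2 of mice 3, 11 and 20. For TCRα they made up 41.2 and 68.0%, 43.8 and 63.6%, and 23.5 and 60.8%, so the difference between the tumors was larger on the α chain. The smaller libraries of tumor 2 moved with these differences, and what thinning leaves of the effect of library size was not tested.

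V and J segments were summed over clonotypes and compared between tumors with the mouse as a block. No TRBV segment passed edgeR's quasi-likelihood test (0 of 22, 0.0%, with 2 at an unadjusted p below 0.05 and 0 by DESeq2). TRBV17 was the most used TRBV segment in tumor 1 of all 3 mice, at 19.2, 36.2 and 32.5% in mice 3, 11 and 20, and took 21.9, 18.9 and 39.97% of tumor 2. TRBV13-2 went from 18.5 to 24.7%, from 8.21 to 18.2% and from 5.49 to 2.75%. TRBV19 went from 6.45 to 19.3% in mouse 3 and was lower in tumor 2 of the other mice. TRBV14 went from 11.9 to 0.700% in mouse 3, where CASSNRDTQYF alone was 9.77% of tumor 1. These segments moved in different directions in different mice. TRBV1 was lower in tumor 2 of all 3 mice, from 3.33 to 0.411%, from 4.52 to 1.42% and from 11.1 to 4.16% (edgeR adjusted p = 0.312).

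No TRBJ segment passed the test either (0 of 12, 0.0%, with 2 at an unadjusted p below 0.05). DESeq2 called 2 TRBJ segments lower in tumor 2, and edgeR also called 2 when mouse 11 was left out. TRBJ1-4, chosen after its values were seen, came closest, from 2.82 to 0.910%, from 6.33 to 1.97% and from 4.71 to 1.87% (log2 change -1.55, SE 0.38, edgeR adjusted p = 0.0885). TRBJ2-4 was higher in tumor 2 of all 3 mice, from 12.9 to 14.1%, from 5.89 to 11.3% and from 12.8 to 21.9% (edgeR adjusted p = 0.491). TRBJ2-1 went from 6.57 to 23.4% in mouse 3, in which the TRBV19–TRBJ2-1 clonotype supplied 16.1% of tumor 2. TRBJ2-2, TRBJ2-5 and TRBJ2-7 moved in opposite directions in different mice.

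Among TRAV segments 0 of 63 passed (0.0%), with 9 at an unadjusted p below 0.05 and 3 called by DESeq2. The median log2 change was -1.19 with 50 of 63 below 0, and -0.14 with 35 below 0 with TMM factors. TRAV3-3 went from 7.00 to 29.8% in mouse 3, where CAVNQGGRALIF took 25.3% of tumor 2, and was nearly level in mouse 11 (6.87 and 8.99%) and mouse 20 (6.79 and 7.54%). TRAV11 went from 3.92 to 23.5% in mouse 20 and fell below 0.2% in tumor 2 of the others. TRAV6-6 went from 4.85 to 17.7% in mouse 11, and TRAV6-5 from 7.21 to 16.1%. TRAV7-4 went from 11.7 to 3.17% in mouse 11 and was higher in tumor 2 of mice 3 and 20.

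Among TRAJ segments 5 of 43 (11.6%) passed, and all 5 were lower in tumor 2 of every mouse. TRAJ21 took 2.08 and 0.329%, 2.44 and 0.108%, and 1.69 and 0.208% of tumor 1 and tumor 2 in mice 3, 11 and 20 (log2 change -3.38, SE 0.70, edgeR adjusted p = 0.0196). TRAJ27 took 2.20 and 0.213%, 1.35 and 0.305%, and 4.199 and 0.295% (-3.12, SE 0.67, adjusted p = 0.0196). TRAJ26 took 1.85 and 0.278%, 1.58 and 0.317%, and 2.45 and 0.406% (-2.55, SE 0.62, adjusted p = 0.0235). For these 3 segments every tumor 1 lay above every tumor 2. TRAJ57 took 1.795 and 0.145%, 1.92 and 0.240%, and 5.72 and 1.803% (-2.77, SE 0.68, adjusted p = 0.0235), so that tumor 2 of mouse 20 just reached tumor 1 of mouse 3. TRAJ6 took 0.831 and 0.122%, 0.849 and 0.130%, and 1.61 and 0.471% (-2.42, SE 0.68, adjusted p = 0.0438). None of the 5 held a leading clonotype of tumor 2. The whole set of TRAJ segments, like the TRAV segments, shifted toward lower values, with a median log2 change of -0.88 and 37 of 43 below 0. With TMM factors that median was 0.45 and 17 of 43 were below 0. All 5 kept a lower value in tumor 2, with log2 changes from -2.07 to -1.10, and none was called. DESeq2 called 1, and 2 were called with each clonotype counted once. Without the mouse as a block none was called. None was called without mouse 3 or without mouse 11, and 9 segments were called without mouse 20. The segments with the largest change in share held leading clonotypes, with TRAJ15 from 7.70 to 29.6% in mouse 3, TRAJ32 from 8.23 to 23.8% in mouse 20, TRAJ30 from 17.0 to 22.4% in mouse 11 and TRAJ12 from 4.23 to 8.98% and from 4.61 to 10.4% in mice 3 and 20.

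**Figure D4:**
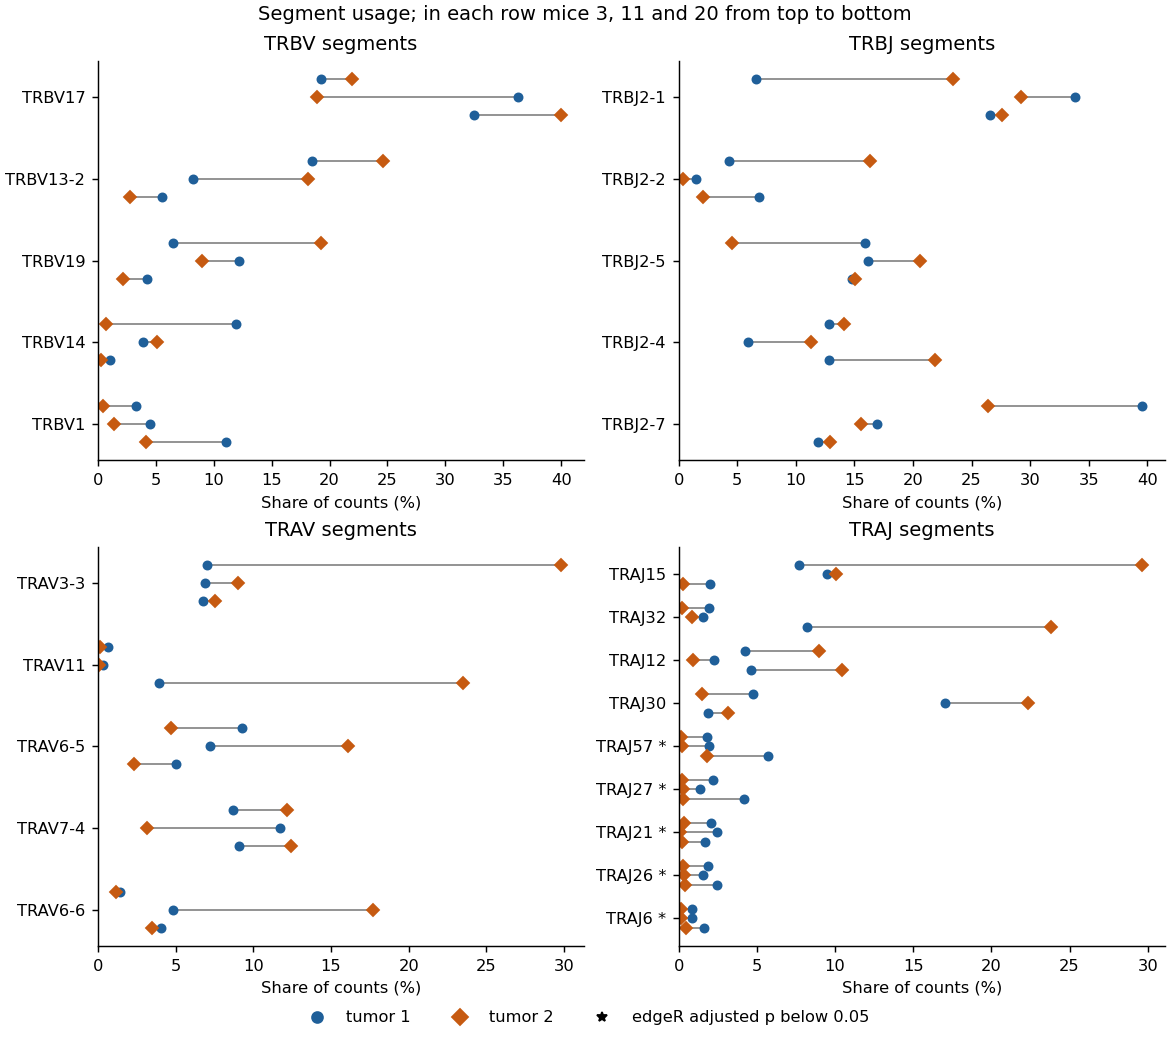
Share of counts of the segments named, with circles for tumor 1 and diamonds for tumor 2 joined by a line, and mice 3, 11 and 20 from top to bottom in each row. Most segments move in different directions in different mice, and the 5 TRAJ segments with a star (edgeR adjusted p below 0.05) lie lower in tumor 2 of all 3 mice, TRAJ21 from 2.08 to 0.329% in mouse 3.

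Invariant and other listed receptors took small shares. The TRAV11 with TRAJ18 chain typical of invariant natural killer T cells, which recognize lipids on CD1d, took 0.338 and 0.165%, 0.286 and 0.0467%, and 0.779 and 0.0443% of tumor 1 and tumor 2 in mice 3, 11 and 20. It was lower in tumor 2 of 3 of 3 mice, with a mean difference of -0.383 ± 0.307 percentage points (SD, n = 3, exact sign-flip permutation p = 0.25, the smallest possible). It was also lower in tumor 2 of 3 of 3 untreated time-separated mice (mean -0.662 points) and of 2 of 3 mice at 2 mg/kg (mean -0.0849 points). In the time-matched mice it was lower in 2 of 3, with a mean of 0.0208 points. The TRAV1 with TRAJ33 chain typical of mucosal-associated invariant T cells, which recognize vitamin B metabolites on MR1, stayed at or below 0.126%. It was not found in tumor 2 of mice 3 and 20, where 3 counts would be 0.00537 and 0.00415%. In BALB/c mice, superantigens of endogenous mouse mammary tumor viruses delete most T cells with TRBV26, TRBV12-1, TRBV12-2, TRBV16 or TRBV15. These segments together took 0.676 and 0.602%, 4.34 and 1.73%, and 1.93 and 1.497% of counts. TRBV16 made up most of it in mouse 11, with 4.21 and 1.57%, and in tumor 1 of mouse 20, with 1.37%, while TRBV15 took 1.36% in tumor 2 of mouse 20. TRBV26 and TRBV12-1 took at most 0.0319 and 0.100% in any of the 6 tumors.

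The position of J segments in their loci was also compared, since the TRBJ1 and TRBJ2 clusters follow separate D segments and the TRAJ segments are used from the 5′ to the 3′ end in successive rearrangements of the α locus. The TRBJ1 cluster took 14.7 and 10.2%, 23.3 and 21.9%, and 18.5 and 15.2% of TCRβ counts in tumor 1 and tumor 2. It was lower in tumor 2 of 3 of 3 mice, by a mean of -3.04 ± 1.60 percentage points (SD, n = 3, exact sign-flip permutation p = 0.25). It was also lower in tumor 2 of 3 of 3 untreated time-separated mice (mean -6.56 points) and of 3 of 3 mice at 2 mg/kg (mean -8.50 points). The 3′ TRAJ segments (TRAJ31 to TRAJ2) took 40.7 and 63.2%, 65.5 and 68.8%, and 44.0 and 47.2% of TCRα counts, higher in tumor 2 of all 3 mice, with most of the shift in mouse 3. The mean shift was 9.70 points, against 9.19 in the untreated time-separated mice, where 2 of 3 were higher in tumor 2, and -1.17 at 2 mg/kg, where 1 of 3 was.

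Mean CDR3 length over all counts had no common direction. Weighted by counts, the mean TCRβ length went from 13.3 to 14.0 residues in mouse 3, from 13.7 to 13.7 in mouse 11 and from 13.3 to 12.6 in mouse 20, a mean difference of -0.0140 ± 0.6913 residues (SD, n = 3, exact sign-flip permutation p = 1.0). The mean TCRα differences were -0.0720, 0.0972 and 0.00879 residues (p = 0.75 by the same exact test). Without the 3 largest clonotypes of each tumor, the TCRβ length was lower in tumor 2 of 3 of 3 mice, with differences of -0.95, -0.27 and -0.61 residues, and the time-matched differences reached 0.78 in size. The length profile of single mice changed more than its mean. In mouse 20 the CDR3s of 11 residues went from 33.0 to 54.9% of TCRβ counts, with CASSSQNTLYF and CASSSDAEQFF both of that length. In mouse 3 those of 15 residues went from 13.8 to 23.9%, which holds the TRBV19–TRBJ2-1 clonotype.

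The middle of the CDR3 was slightly less hydrophilic in tumor 2. The mean Kyte-Doolittle hydropathy of the residues left after the first 3 and the last 3, weighted by counts, was -1.413 and -1.149, -1.575 and -1.358, and -1.341 and -1.305 for TCRβ in tumor 1 and tumor 2 of mice 3, 11 and 20. For TCRα it was -1.430 and -1.338, -1.472 and -1.365, and -1.535 and -1.363. It was higher in tumor 2 of 3 of 3 mice on both chains, also when each clonotype counted once. Without the 3 largest clonotypes of each tumor it was higher in tumor 2 in 2 of 3 mice for TCRβ and in 1 of 3 for TCRα. The differences of the time-matched mice reached 0.077 (TCRβ) and 0.062 (TCRα) in size, and the TCRβ difference of mouse 20 (0.036) lay within that. Weighted TCRβ hydropathy was also higher in tumor 2 of every other time-separated mouse, from -1.301 to -1.128 in mouse 10 (2 mg/kg) and -1.161 to -1.074 in untreated mouse 4. For TCRα those mice went both ways, with -1.497 and -1.238 in untreated mouse 19 and -1.564 and -1.591 in untreated mouse 17. Net charge of the whole TCRα CDR3, weighted by counts, was higher in tumor 2 of 3 of 3 mice by 0.0414 to 0.137. The time-matched differences in charge reached 0.107 in size. Charge was higher in tumor 2 of 2 of 3 mice with each clonotype counted once and in 1 of 3 without the 3 largest clonotypes. These features were given no test.

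**Figure D5:**
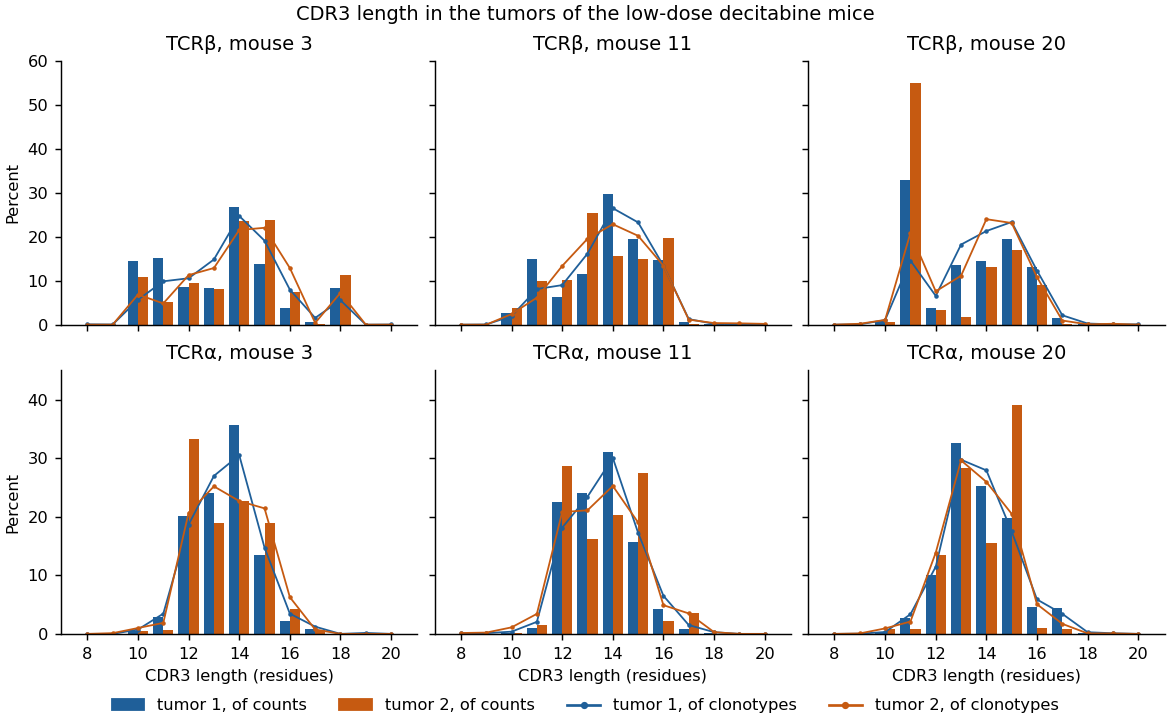
CDR3 length in residues (horizontal) against percent (vertical) in tumor 1 and tumor 2 of each low-dose mouse, with bars for the percent of counts and lines for the percent of clonotypes. The bars move apart where single clonotypes lead, such as 11 residues in TCRβ of mouse 20 (33.0 to 54.9% of counts), while the lines of the tumors stay closer together.

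Few clonotypes were common to the low-dose mice, counted without thinning. Mice 3 and 11 had 66 TCRβ clonotypes in common (2.04 and 1.82% of their lists), mice 3 and 20 had 79 (2.44 and 2.10%) and mice 11 and 20 had 113 (3.12 and 3.01%). For TCRα the numbers were 97, 111 and 160. A clonotype at 1% or more in a tumor of 2 different low-dose mice was seen 7 times, and these 7 were chosen after their values were seen. The 3 below show the same protein sequence with either the same or another nucleotide sequence.
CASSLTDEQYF (TRBV4–TRBJ2-7), mice 3 and 20: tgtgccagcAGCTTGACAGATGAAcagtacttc
TRAV7-4–TRAJ12, 15 residues, mice 3 and 20: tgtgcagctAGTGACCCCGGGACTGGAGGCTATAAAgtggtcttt
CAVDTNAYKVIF, mouse 11: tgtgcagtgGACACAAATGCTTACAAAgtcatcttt
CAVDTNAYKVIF, mouse 20: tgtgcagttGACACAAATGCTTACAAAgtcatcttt

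The pair shared by mice 3 and 20 was higher in tumor 2 of both. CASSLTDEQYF took 1.69 and 3.53% in mouse 3 and 0.956 and 5.29% in mouse 20, and the TRAV7-4–TRAJ12 clonotype took 2.99 and 7.56% and 2.52 and 9.05%. Each had the same leading nucleotide sequence in both mice and was found in no other mouse of the series. All 7 nucleotide sequences for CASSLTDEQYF in mouse 3 were also found in mouse 20, as were 9 of the 11 for the TRAV7-4–TRAJ12 clonotype. Another nucleotide sequence for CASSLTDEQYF was found in mouse 20 only, with 80 and 325 counts. Whether RNA of one mouse was carried into the libraries of the other was not tested. Because α and β were not linked in the data, whether the 2 chains came from the same cells was not measured.

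The TCRα clonotypes shared by mice 11 and 20 were more widespread. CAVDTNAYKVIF took 7.27 and 5.88% in mouse 11 and 0.382 and 2.42% in mouse 20, from different leading nucleotide sequences, and was found in 8 further mice. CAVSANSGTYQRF took 5.08 and 7.69% and 0.683 and 2.55% with the same leading sequence. Another pair were TRAV7-3 clonotypes of mice 3 and 11 that moved in opposite directions. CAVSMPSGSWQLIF (TRAJ22) took 0.285 and 1.91% and 0.528 and 1.51%, higher in tumor 2 of both mice, while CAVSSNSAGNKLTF (TRAJ17) took 1.21 and 0.0537% and 1.77 and 0.0457%, lower in tumor 2 of both.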

How the data were processed

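Receptor sequences were measured in RNA from whole tumors with SMART-Seq Mouse TCR (with UMIs), which amplifies TCRα and TCRβ transcripts and tags molecules before amplification. The authors called sequences with Cogent NGS Immune Profiler and deposited 1 table per tumor and chain. The deposited values are counts per sequence without normalization. Per the study's methods this software also ran an analysis based on the molecular tags. The deposited counts are called reads in the file headers and by the study, and how the tags entered them and which annotation was used is not given in the sources used here.

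Sequences marked with a stop codon (all those out of frame were) and sequences with a count below 2 were left out. Sequences with the same CDR3, V and J formed a clonotype. Measures given after thinning used 63291 counts per library for TCRβ or 26623 for TCRα, drawn without replacement, and were averaged over 20 draws. Intervals of shares are exact Clopper-Pearson intervals at 95%, and a share of 0 was set at a limit of 3 counts. Both cover counting error only.

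Clonotypes named were, per mouse and chain, the 3 largest of each tumor, the largest gain and loss in share, and the largest found in 1 tumor only. Segments named were those called by edgeR and otherwise the 5 of each kind with the largest mean absolute difference in share. TRBJ1-4 was added outside this rule, after its values were seen. The values and sequences of 1 clonotype the rule names are not reported here. The members and lists were chosen with earlier results of these data known. Sample labels gave the mouse, which pairs its tumors. Differences within mice were given exact sign-flip permutation tests, and groups were compared with exact permutation tests of 1 value per mouse, both against either direction. Sign-flip p-values measure the spread between 3 mice, and the group tests compare 3 mice with 3 or 6 others. Segments with at least 10 counts in at least 3 of the 6 libraries were tested with edgeR 4.0.16 (R 4.3.3) quasi-likelihood tests on counts, with total retained counts as library size and the mouse as a block, called at a Benjamini-Hochberg adjusted p below 0.05. The alternatives were TMM factors, DESeq2 1.42.0, no filter on low counts, each clonotype counted once, single counts kept, omission of each mouse's largest clonotype, other fold limits, no pairing, and each mouse left out. Merging duplicate TRAV copies and leaving out likely error variants (sequences 1 base from one at least 100 times larger) were added after the data were seen, and so was keeping single counts for the named clonotypes. The computations were tested on simulated data. Python 3.11.15, NumPy 2.4.6, pandas 2.3.3, SciPy 1.17.1 and matplotlib 3.10.9 were used.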

Additional observations from a re-analysis of the deposited data

Results flagged for a closer look

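The lists of 3′ and 5′ TRAJ segments moved one way in every low-dose mouse and the opposite way in every time-matched mouse. From tumor 1 to tumor 2, TRAJ31 to TRAJ2 differed by a mean of 9.70 percentage points in the low-dose mice and -2.69 in the time-matched mice, and TRAJ61 to TRAJ32 by -9.68 and 2.70. These lists are complements of each other, so they are 1 observation. The time-matched mean came from mouse 14 (55.1 to 47.3%), while mouse 6 (29.5 and 29.4%) and mouse 12 (79.2 and 79.0%) were nearly level, and the untreated time-separated mice had a mean of 9.19 points and those given 2 mg/kg a mean of -1.17 points. The TRBV segments deleted by superantigens differed by a mean of -1.04 and 1.22 percentage points in the same groups. Each mean was carried by 1 mouse, low-dose mouse 11 (4.34 to 1.73%) and time-matched mouse 14 (10.4 to 13.9%). The difference between the groups was not tested in these cases, and the tumor numbers of the time-matched mice have no order in time.

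TCRα counts with a V segment of another locus, which were left out of the TRAV segment comparison and kept among the clonotypes, took 0.795% in tumor 1 of mouse 11 and 1.302% in tumor 1 of mouse 20, above the highest time-matched library at 0.767%. The highest of the series was 2.26%, in tumor 1 of untreated time-separated mouse 19. In mouse 11, TCRβ sequences marked with a stop codon, which no comparison used, made up 8.80% of tumor 1 and 8.91% of tumor 2, above the highest time-matched library at 8.52%. The series reached 9.65%, in tumor 2 of untreated time-separated mouse 4.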

How the results depend on the processing

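Of 372 alternative values, 324 kept their direction and their side of the threshold (or moved less than the spread between mice). Of the others, 28 kept their direction but not their side of the threshold, 14 moved further and 6 changed direction. The exact tests of 3 pairs or of 3 against 3 mice cannot give a p below 0.05. Their results could therefore change only in direction, so that part of the 324 was fixed beforehand. For segments, TRAJ calls went from 5 to 0 with TMM factors, 1 with DESeq2 and 2 with each clonotype counted once, and to between 0 and 9 with a mouse left out. TRBJ calls went from 0 to 2 with DESeq2 and ranged from 0 to 2 with a mouse left out, and TRAV calls went from 0 to 3 with DESeq2. The single TRAJ segments kept a lower value in tumor 2 under all these settings. The cause of the lost calls was not tested. Mean TCRβ CDR3 length, -0.0140 residues, turned to 0.0293 without the largest clonotype of each mouse and ranged from -0.370 to 0.321 with a mouse left out. Mean TCRα length, 0.0113 residues, turned to -0.144 and ranged from -0.0316 to 0.0530. The percent of clonotypes past the limit was 88.3 (TCRβ) and 92.9 (TCRα) at 2-fold, and 56.2 and 70.6 at 8-fold. Of 84 values of named clonotypes, 1 changed sign, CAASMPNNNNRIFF at 0.0244 percentage points with single counts kept. With duplicate TRAV copies merged, 0 of 45 segments were called.

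The pairing comes from the mouse. Without the replicate block, 0 TRBV, 0 TRBJ, 0 TRAV and 0 TRAJ segments were called. Unpaired exact permutation tests gave p = 0.1 (TCRβ) and 0.2 (TCRα) for the number of clonotypes (-0.79 and -0.66), 0.1 and 0.1 for the Shannon index (-0.0834 and -0.184), and 1.0 and 0.9 for CDR3 length. Depth limits clonotypes near 3 counts, which are 0.00151 to 0.00537% of a library.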
